A study of Mus musculus with 28 samples.

Results

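The genes described here are the very long genes of the mouse frontal cortex, those whose annotated span reaches 500 kb or more. The span is the distance from the smallest start to the largest end listed for a gene identifier in the deposited table, on the build GRCm38. Of 25900 genes, 204 reached that span. Of these, 16 had a mean under 1 CPM (counts per 1000000 counts of a library) over the 28 libraries, and 33 were left out by name because they belong to families such as the neurexins, neuroligins and potassium channels. The remaining 155 genes are the members. Neither the span limit nor the level limit used a difference between genotypes. The members, with the families left out by name, were chosen with earlier results of these data known.

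PolyA RNA of the frontal cortex of 20-month-old C57BL/6 mice was sequenced with a stranded mRNA library kit. They carried 0, 1 or 2 knock-in alleles of Tardbp, the gene of TDP-43, with the substitution Q331K that occurs in amyotrophic lateral sclerosis. There were 8 wild-type libraries (genotype +/+, called WT), 10 heterozygous libraries (Q331K/+, HET) and 10 homozygous libraries (Q331K/Q331K, HOM). Sex, litter and batch are not labelled, and nothing says that libraries of a group are different animals: the p-values cover the spread among libraries, part of which may be technical.

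Very long genes owe their length to introns, and RNA polymerase II needs hours to cross one of them. In the brain they are enriched for neuronal adhesion molecules, ion channels and synaptic scaffolds. TDP-43 is a nuclear protein that binds UG-rich stretches of RNA, many of them deep in long introns, and long neuronal transcripts are known to fall when TDP-43 is depleted. Q331K lies in the low-complexity domain of the protein and not in the part that contacts RNA.

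The members had a median span of 724.9 kb, against 24.7 kb for all genes with a mean of 1 CPM or more, and 40 of them spanned at least 1000 kb. They lay on 20 chromosomes, with at most 13 on one (chromosome 8). Of the 155, 150 were found in GENCODE vM21, and all 150 were protein-coding there. Their exons covered a median of 10.28 kb, or 1.285% of the span. Just inside the limit were Edil3, Dock1 and Car10, with 501751, 502952 and 503721 bases. Just outside were Dnm3, Ank3 and Prkce, with 495581, 493214 and 490134 bases. On the level limit, Sgcd (1.27 CPM) and Ctnna3 (1.44 CPM) were just inside and Dach2 (0.528 CPM) was just outside. The reference gives 2 members a span under 500 kb: Arfip1 and Arhgap26. The longest member, Gm20388, is a gene model of 4435 kb on chromosome 8 whose exons overlap those of Usp10 on the same strand by 2.5%; Foxp1 likewise shares exon bases with a neighbour on its strand. Exons of 5 other members overlap a gene at 1 CPM or more on the opposite strand, and none of those 5 passed the test for HOM against WT. Members and neighbours outside the reference were not checked for overlap. Among these unchecked members is AC132131.1, which did pass that test. Several names in the table are older symbols: Bai3 is Adgrb3, Pgcp is Cpq and Mar-01 is March1.

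The members ranged from 1.27 CPM (Sgcd) to 1927 CPM (Syt1), with a median of 41.55 CPM; 120 reached 10 CPM and 36 reached 100 CPM. Per kilobase of exon their median level was 4.102 CPM, against 5.905 CPM for all genes at 1 CPM or more. The 5 most abundant in CPM were Syt1, the calcium sensor of synaptic vesicle release, Kalrn, a protein of dendritic spines, Dlgap1, a postsynaptic scaffold, Ryr2, a calcium release channel of the endoplasmic reticulum, and Ptprd, a presynaptic receptor phosphatase. Per kilobase of exon, Syt1 stood at 231 CPM, Dlgap1 at 28.7, Kalrn at 26.5, Ptprd at 14.1 and Ryr2 at 12.1.

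Library totals ran from 30.46 to 74.91 M counts (M for 1000000 counts; median 53.53 M), and HOM 2 and HOM 1 were the shallowest at 30.46 and 32.83 M. Tardbp, the targeted gene, had means (± SD) of 320 ± 13.1 CPM for WT (n = 8), 328 ± 13.6 for HET (n = 10) and 350 ± 18.4 for HOM (n = 10), and rose by 0.12 on the log2 scale in HOM (SE 0.03, adjusted p = 0.0185). Gene counts do not tell its alleles apart. Of 10 lists of cell type markers, none had a marker at 0 in all libraries. Against WT, 10 of 14 microglial, 5 of 14 endothelial and mural and 4 of 10 oligodendrocyte precursor markers were higher in HOM. So were 3 of 13 astrocyte and 1 of 13 meningeal markers, beside 3.9% of all genes tested. Median log2 fold changes were 0.19 (microglia), 0.16 (endothelial and mural), 0.20 (precursors), 0.13 (astrocytes) and 0.595 (meningeal), beside 0.005 for all genes. That of parvalbumin interneuron markers was -0.13. No marker of choroid plexus and ependyma or of striatal projection neurons passed, with medians of 0.18 and -0.03. Summed striatal markers ran from 258.4 to 821.9 CPM in WT and from 272.9 to 687.9 CPM in HOM. Of 12 markers of mature oligodendrocytes none passed, with a median log2 fold change of -0.09. Their summed level had a median of 4716 CPM in WT and 4394 CPM in HOM. None of 12 pan-neuronal markers passed, Syt1 among them, and their median log2 fold change was -0.04. Their summed level was 10050 to 10960 CPM in WT (median 10660) and 9759 to 10990 CPM in HOM (median 10210). The members' median log2 fold change in HOM against WT was -0.06 with or without a score of these markers, Syt1 included, in the fit. Beyond that fit, the part of the lower pan-neuronal median in the level of the very long genes was not tested. In bulk tissue, fewer cells of a type and less RNA per cell cannot be told apart.

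In HOM against WT, 27 of the 155 very long genes passed the test (edgeR's quasi-likelihood test, adjusted p under 0.05 over all 16110 genes tested), and 23 of the 27 were lower in HOM. That is 14.8% of the members lower, against 3.71% of all genes tested, and 2.58% higher (4 genes), against 3.9%. Among all genes with a mean of 1 CPM or more, as the members have, 4.14% were lower and 4.17% higher. Called in either direction were 17.4% of the members and 7.61% of all genes. The median log2 fold change of the members was -0.06, or 0.961-fold, while that of all genes was 0.005. The fold change was below 0 for 112 members (72.3%, against 47.7% of all genes). An unadjusted p under 0.05 was found for 61 members (39.4%, against 24.6% of all genes), 55 of them lower (35.5% against 11.4%). The individual changes were small: the 23 lower genes had log2 fold changes from -0.34 to -0.11.

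**Figure D1:**
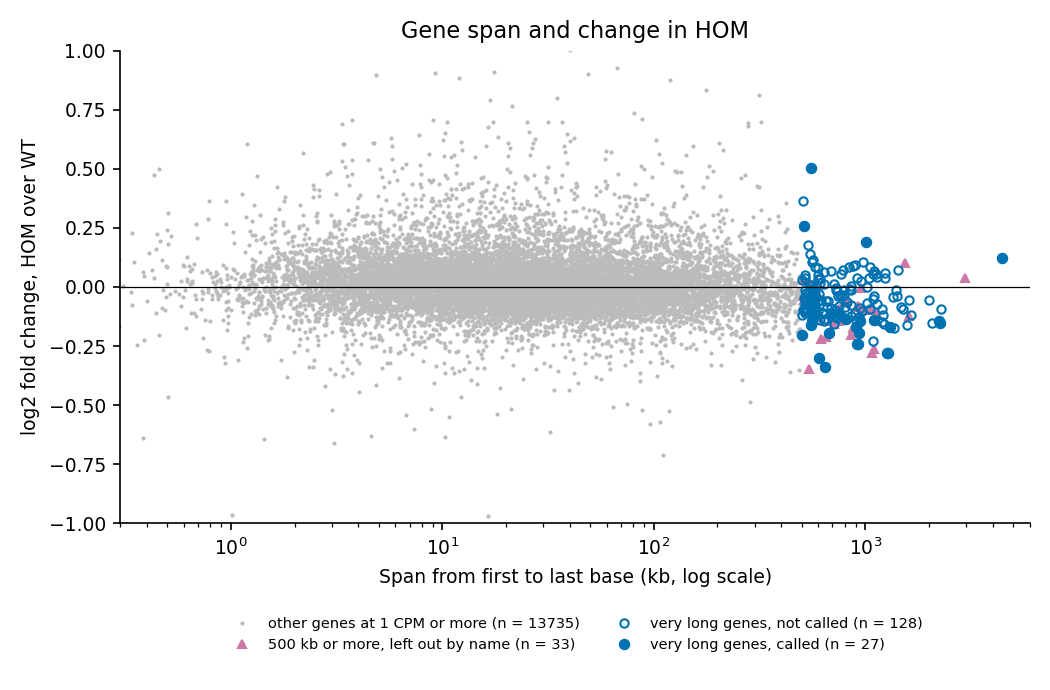
Log2 fold change of HOM over WT (vertical axis) against gene span in kb (horizontal axis, log scale) for genes with a mean of 1 CPM or more; filled circles are the 27 very long genes that passed the test, open circles the other 128, triangles the 33 left out by name. Most of the very long genes lie below the line at 0; 8 genes beyond the vertical range and 6 beyond the horizontal range are not drawn, and none of the 8 is a very long gene.

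The lower share grew with span across the whole table. Genes under 10 kb were lower in 1.99% of 4469, those of 10 to 50 kb in 3.58% of 7186, those of 50 to 100 kb in 4.37% of 2196, those of 100 to 200 kb in 4.96% of 1351 and those of 200 to 500 kb in 7.28% of 714. The members, at 14.8%, followed on, and the 33 genes left out by name, which are as long, were lower in 39.4% (13 genes). The higher share moved less, from 4.32% under 10 kb to 2.52% at 200 to 500 kb. In the median the shorter classes were nearly level, between 0.02 under 10 kb and -0.01 at 50 to 100 kb, and genes of 200 to 500 kb had a median of -0.007. Among the members themselves, neither the median nor the lower share in HOM moved steadily with span. The median was -0.05 at 500 to 750 kb (82 genes, 10 lower), -0.08 at 750 to 1000 kb (33 genes, 7 lower) and -0.07 at 1000 kb or more (40 genes, 6 lower). In HET against WT the medians, in the same order, were -0.035, -0.046 and -0.06. The classes under 500 kb, unlike the members, include genes with a mean under 1 CPM. Differences between these classes were not tested.

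**Figure D2:**
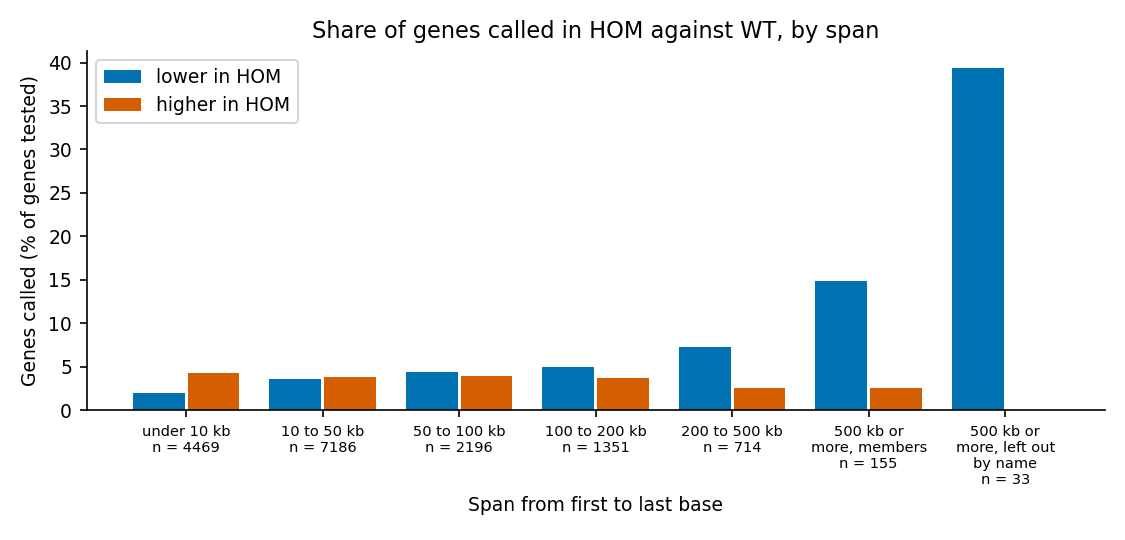
Share of genes tested (%, vertical axis) that were lower (blue) or higher (orange) in HOM than in WT at an adjusted p under 0.05, by class of span (horizontal axis, number of genes under each class). The blue bars grow from 1.99% under 10 kb to 14.8% for the 155 very long genes.

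More counts give a test more power, so the members were set beside other genes of like level. At 100 CPM or more, 8 of 36 members were lower (22.2%) and 159 of 2245 other genes (7.08%), with medians of -0.06 and -0.01. At 10 to 100 CPM, 14 of 84 members were lower (16.7%) and 4.24% of 7783 others. At 1 to 10 CPM, 1 of 35 members was lower (2.86%) and 1.74% of 3740 others, and the medians were -0.03 and 0.04. The members' median lay under that of the other genes in each of the 3 bands.

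Per library, the share of all counts that fell in the very long genes was 1.3 to 1.39% in WT (median 1.34%), 1.26 to 1.35% in HET (median 1.32%) and 1.27 to 1.31% in HOM (median 1.29%). All 10 HOM libraries were under the WT mean and 7 were under the lowest WT value. The groups overlapped, since WT 5 and WT 3 were within the HOM range. The median log2 deviation of the 155 genes from their WT mean was -0.03 to 0.04 in WT, -0.08 to 0.006 in HET and -0.10 to -0.02 in HOM, and 9 HOM libraries were under the lowest WT value. Over all genes the same measure stayed between -0.005 and 0.01 in every library, which the scaling of libraries (TMM) brings about by design. WT 6 had the highest share of counts in the very long genes, 1.39%, and the shallow HOM 1 had the lowest median deviation.

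**Figure D3:**
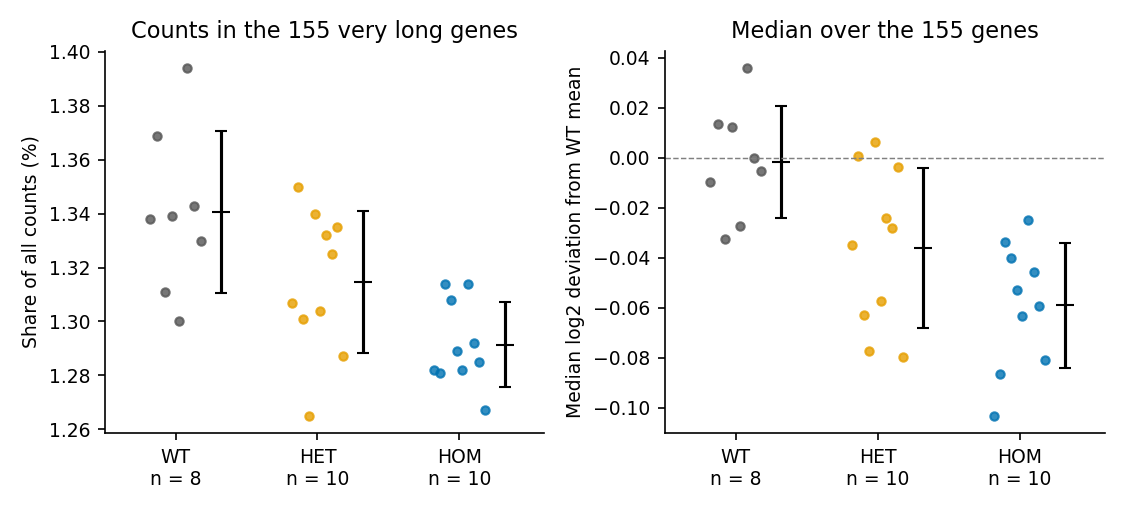
Share of each library's counts in the 155 very long genes (left, %) and the median of their log2 deviations from the WT mean (right), by genotype; each point is 1 library, and the bar is the mean with its SD. HOM libraries lie at 1.27 to 1.31% on the left and at -0.10 to -0.02 on the right, and overlap with WT in both.

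Leaving out WT 6, or adding 2 surrogate variables or meningeal and vascular marker scores to the fit, changed these counts by over 1.5 times. Without WT 6, 14 members passed (13 lower), and 595 genes in all instead of 1226 (3.68% instead of 7.61%). Without WT 6 and HOM 3, 13 passed (12 lower), and 509 genes in all (3.16%). With 2 surrogate variables estimated from the data, 12 members passed (11 lower, 1 higher), and the members' median was -0.05. In either direction that is 7.74% of the members, beside 6.65% of all genes (1071). The lower share of all genes in this fit was not counted. Those 12 were Arhgap15, Wwox, Agbl4, Edil3, Sntg1, Esrrg, Camta1, Cntnap2, Gabrg3, A830018L16Rik, Frmpd4 and Pgcp, all of them among the 27. With scores of the meningeal and vascular marker lists in the fit, 2 members passed (1.29%), Arhgap15 and Ptprm, both lower, and 148 genes in all (0.919%), while the members' median was -0.04. The summed meningeal markers ran from 56.6 to 127 CPM in WT and from 71.2 to 309 CPM in HOM, and the endothelial and mural markers from 410 to 451 CPM and from 427 to 523 CPM. The summed microglial markers ran from 529.5 to 620 CPM in WT and from 597 to 751 CPM in HOM, and the astrocyte markers from 2727 to 3132 CPM and from 3017 to 3613 CPM. Of 11 markers of parvalbumin interneurons, 3 were lower in HOM, with sums of 1373 to 1634 CPM in WT and 1297 to 1749 CPM in HOM. The part of these 3 cell types in the level of the very long genes was not tested. With a pan-neuronal marker score in the fit, 26 members passed (23 lower), and 1286 genes in all (7.98%).

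The counts of the role lists are read against all genes tested, of which 3.71% were lower and 3.9% higher. Among the 31 members listed under signalling enzymes and metabolism, not all of them enzymes, 3 fell (9.68%) and none rose, with a median of -0.05. Arhgap15, a GTPase-activating protein of Rac (ENSMUSG00000049744, plus strand of chromosome 2, 43748824 to 44395953), had the smallest p of all members. It stood at 20.0 to 24.8 CPM in WT (median 21.6), 17.7 to 23.1 in HET (median 20.2) and 15.8 to 20.6 in HOM (median 17.4). 9 of 10 HOM libraries were under the lowest WT value, and 1 overlapped with WT. Its log2 fold change was -0.34 (SE 0.05, adjusted p = 0.000389), or 0.79-fold. Wwox, an oxidoreductase with WW domains whose gene spans a fragile site (ENSMUSG00000004637, plus strand of chromosome 8, 114439655 to 115352708), stood at 22.3 to 26.9 CPM in WT (median 25.9), 20.9 to 24.8 in HET (median 23.3) and 19.0 to 23.4 in HOM (median 21.4). In HOM, 6 libraries were under the lowest WT value and all 10 below the WT mean, so the groups overlapped at their edges. The log2 fold change of Wwox was -0.24 (SE 0.04, adjusted p = 0.0013). Plcb1, the phospholipase C that acts below Gq-coupled receptors, fell by 0.11 on the log2 scale from a WT mean of 286 ± 8.94 CPM (SD, n = 8; adjusted p = 0.0213), a call lost without WT 6. Ptprn2, a phosphatase-like protein of dense-core vesicles, was at -0.01 (SE 0.04, adjusted p = 0.869).

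Of 29 scaffold, cytoskeletal and vesicle release genes, 5 fell (17.2%), 1 rose (3.45%) and the median was -0.04. Agbl4, a carboxypeptidase that trims glutamate chains of tubulin (ENSMUSG00000061298, plus strand of chromosome 4, 110397661 to 111664324), was at 14.8 to 17.4 CPM in WT (median 15.8), 11.98 to 15.9 in HET (median 14.7) and 10.7 to 14.8 in HOM (median 13.4). It was the only member with all 10 HOM libraries below all 8 WT libraries, at 14.79 against 14.80 CPM where the groups met (0.645% of members, against 0.18% of all genes), and no member had them all above (0.223% of all genes). The log2 fold change of Agbl4 was -0.28 (SE 0.05, adjusted p = 0.00155). Sntg1, a syntrophin of the dystrophin complex, fell by 0.19 (SE 0.04, adjusted p = 0.00329), with 7 HOM libraries below the lowest of WT. Dmd itself, the gene of dystrophin (ENSMUSG00000045103, plus strand of chromosome X, 82948870 to 85206141), stood at 90.8 to 102.8 CPM in WT (median 94.4), 79.0 to 95.4 in HET (median 89.1) and 76.0 to 93.8 in HOM (median 86.7). 7 HOM libraries were under the lowest WT value, and the rest overlapped. The log2 fold change of Dmd was -0.15 (SE 0.04, adjusted p = 0.018), and the call was lost without HOM 1 and HOM 2 together, without WT 6 and HOM 3 together, with 2 surrogate variables and with a replicate block. Nbea, a protein of receptor trafficking, fell by 0.11 (SE 0.03, adjusted p = 0.0317), and Frmpd4, a scaffold that binds PSD-95, by 0.14 (SE 0.04, adjusted p = 0.0451). The call of Nbea was lost without each of WT 1, WT 2, WT 6, WT 7 and HOM 9, and that of Frmpd4 without any 1 library other than WT 4, HOM 4, HOM 5, HOM 7 and HOM 8. The abundant members of this group did not pass: Syt1 at -0.05 (SE 0.03, adjusted p = 0.323), Kalrn at -0.06 (SE 0.04, adjusted p = 0.358) and Dlgap1 at -0.08 (SE 0.03, adjusted p = 0.0906).

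Of 35 members of adhesion and axon guidance, 5 fell (14.3%) and none rose, and the median was -0.07. The 5 were Cntnap2, an axonal adhesion protein that gathers potassium channels (-0.14, SE 0.03, adjusted p = 0.00648), Ptprm, a receptor phosphatase that binds its like on the next cell (-0.12, SE 0.03, adjusted p = 0.0143), Cdh18, a cadherin (-0.24, SE 0.06, adjusted p = 0.0171), Lrrc4c, the netrin-G ligand (-0.17, SE 0.05, adjusted p = 0.0207), and Il1rapl2, an immunoglobulin-domain receptor of the IL-1 receptor family (-0.28, SE 0.09, adjusted p = 0.0441). All 10 HOM libraries were under the WT mean for Cntnap2, Ptprm, Cdh18 and Lrrc4c, and 9 for Il1rapl2, which at 2.92 CPM was the least abundant gene that fell. The call of Lrrc4c was lost without WT 6, and that of Il1rapl2 without any 1 of WT 1, WT 2, WT 5, WT 7, HOM 1, HOM 2, HOM 6, HOM 8, HOM 9 and HOM 10. Ptprd, the second longest member (ENSMUSG00000028399, minus strand of chromosome 4, 75941238 to 78211961), did not pass. It stood at 298.4 to 372.9 CPM in WT (median 334), 291 to 361 in HET (median 318) and 294 to 347 in HOM (median 309). Only 1 HOM library lay below the lowest of WT, and the log2 fold change was -0.09 (SE 0.04, adjusted p = 0.126). Cadm2, a synaptic adhesion protein, was at -0.10 (SE 0.03, adjusted p = 0.0515), just outside the threshold.

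**Figure D4:**
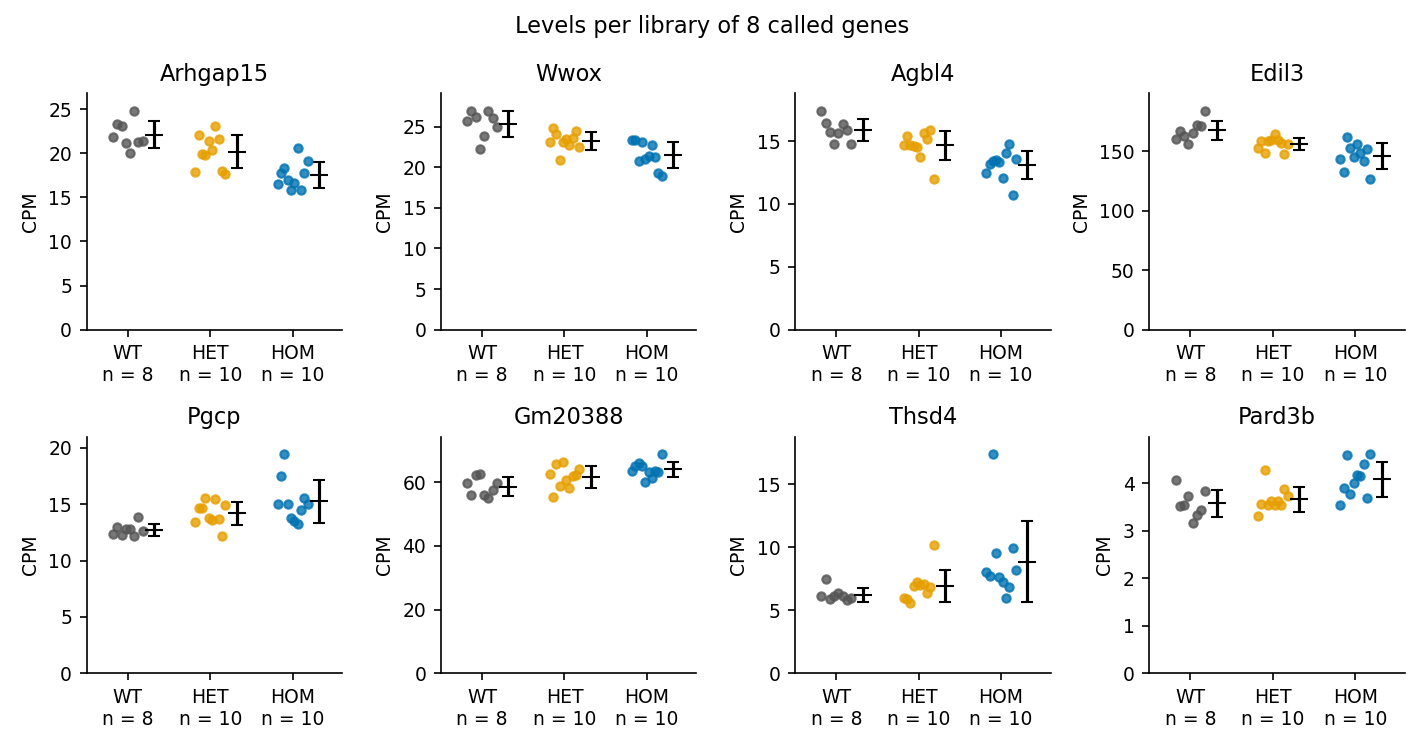
CPM per library of the 4 lower (upper row) and the 4 higher (lower row) very long genes with the smallest p in HOM against WT; each point is 1 library and the bar is the mean with its SD. For Agbl4 no HOM library reaches the WT range, and for Thsd4 HOM 3 stands at 17.4 CPM, above all others.

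Of 19 receptors, ion channels and transporters, 3 fell (15.8%), none rose, and 18 had a fold change below 0 (94.7%, against 47.7% of all genes), with a median of -0.09. Gabrg3, the gamma 3 subunit of GABA-A receptors, fell by 0.20 (SE 0.05, adjusted p = 0.0147). It was at 35.9 to 38.5 CPM in WT and 28.5 to 38.9 in HOM, where 9 libraries lay below the lowest and 1 above the highest of WT. Bai3, an adhesion receptor of synapses, fell by 0.12 (SE 0.03, adjusted p = 0.0188). Ryr2 fell by 0.16 (SE 0.04, adjusted p = 0.0225) with medians of 369 CPM in WT and 330 CPM in HOM. The calls of Bai3 and Ryr2 were lost without WT 6. Lrp1b, a large receptor of the LDL receptor family that spans 2058 kb, was at -0.15 (SE 0.05, adjusted p = 0.0575).

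Of 11 regulators of transcription, chromatin and RNA, 2 fell (18.2%), none rose, and the median was -0.06. Esrrg, an orphan nuclear receptor of energy metabolism, went from 34.6 ± 2.99 CPM (mean ± SD, WT, n = 8) over 31.6 ± 3.08 (HET, n = 10) to 28.2 ± 2.64 (HOM, n = 10), which is -0.30 for HOM (SE 0.06, adjusted p = 0.00362). Camta1, a calmodulin-binding transcription activator, went from 294.5 ± 11.2 CPM in WT to 267 ± 13.8 in HOM (-0.14, SE 0.03, adjusted p = 0.00515). In both genes 8 HOM libraries were under the lowest WT value. Rora, a nuclear receptor, was at -0.02 (SE 0.05, adjusted p = 0.875).

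Among the 30 members in none of these lists, 5 fell (16.7%) and 3 rose (10%). Lists were matched on the symbols of the table. Members that a list holds only under a newer name therefore count here and not in their role. Edil3, a secreted protein that binds integrins (ENSMUSG00000034488, plus strand of chromosome 13, 88821472 to 89323223), stood at 156.2 to 183.6 CPM in WT (median 166), 147 to 164 in HET (median 158) and 126 to 162 in HOM (median 146). 9 HOM libraries were under the lowest WT value. HOM differed from WT by -0.20 on the log2 scale (SE 0.04, adjusted p = 0.00155). The others that fell were A830018L16Rik (-0.14, SE 0.04, adjusted p = 0.0189), Rabgap1l, a Rab GTPase-activating protein (-0.12, SE 0.03, adjusted p = 0.0324), AC132131.1 (-0.14, SE 0.04, adjusted p = 0.0338) and Etl4 (-0.17, SE 0.05, adjusted p = 0.039). The calls of A830018L16Rik, Rabgap1l and AC132131.1 were lost without WT 6. That of AC132131.1 was also lost without WT 2, HOM 1 or HOM 10, that of Rabgap1l without WT 1, WT 2, WT 7, HOM 1, HOM 2, HOM 6 or HOM 10, and that of Etl4 without any 1 library other than WT 4, WT 8, HOM 1, HOM 3, HOM 4, HOM 5, HOM 7 and HOM 8.

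The 4 genes that rose are the exceptions. Pgcp, a secreted glutamate carboxypeptidase (ENSMUSG00000039007, plus strand of chromosome 15, 33083129 to 33594552), stood at 12.1 to 13.8 CPM in WT (median 12.7), 12.2 to 15.6 in HET (median 14.2) and 13.3 to 19.4 in HOM (median 15.0). All 10 HOM libraries exceeded the WT mean and 7 above the highest WT library, and the log2 fold change was 0.26 (SE 0.06, adjusted p = 0.00674). Gm20388 (ENSMUSG00000092329, plus strand of chromosome 8, 119910841 to 124345722) stood at 55.1 to 62.6 CPM in WT (median 58.7), 55.5 to 66.4 in HET (median 62.1) and 60.2 to 68.7 in HOM (median 63.5), with 8 HOM libraries above the highest of WT. The difference on the log2 scale was 0.12 (SE 0.03, adjusted p = 0.0213), and the call was lost without WT 2 or WT 6. Because this model shares exon bases with Usp10 and runs across many genes, its value as 1 transcript is uncertain. Thsd4, a matrix protein that binds fibrillin (ENSMUSG00000032289, minus strand of chromosome 9, 59966931 to 60522046), stood at 5.78 to 7.51 CPM in WT (median 6.11), 5.6 to 10.2 in HET (median 6.9) and 6.0 to 17.4 in HOM (median 7.89). Its log2 fold change was 0.51 (SE 0.14, adjusted p = 0.0314), the farthest from 0 among the 27. 1 library carried part of that size: without HOM 3 the value was 0.34 (adjusted p = 0.0335), and the call was lost without each of WT 1, WT 3, WT 6, WT 7, WT 8 and HOM 9. Pard3b, a cell polarity protein (ENSMUSG00000052062, plus strand of chromosome 1, 61638824 to 62642284), stood at 3.15 to 4.06 CPM in WT (median 3.54), 3.32 to 4.28 in HET (median 3.58) and 3.53 to 4.6 in HOM (median 4.07), and 5 HOM libraries overlapped with WT. Its log2 fold change was 0.19 (SE 0.06, adjusted p = 0.0438), and the call was lost without any 1 library other than WT 1, WT 4, WT 8, HOM 1, HOM 2, HOM 4 and HOM 9. The other called genes for which no omission is given here kept the call without each single WT or HOM library.

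**Figure D5:**
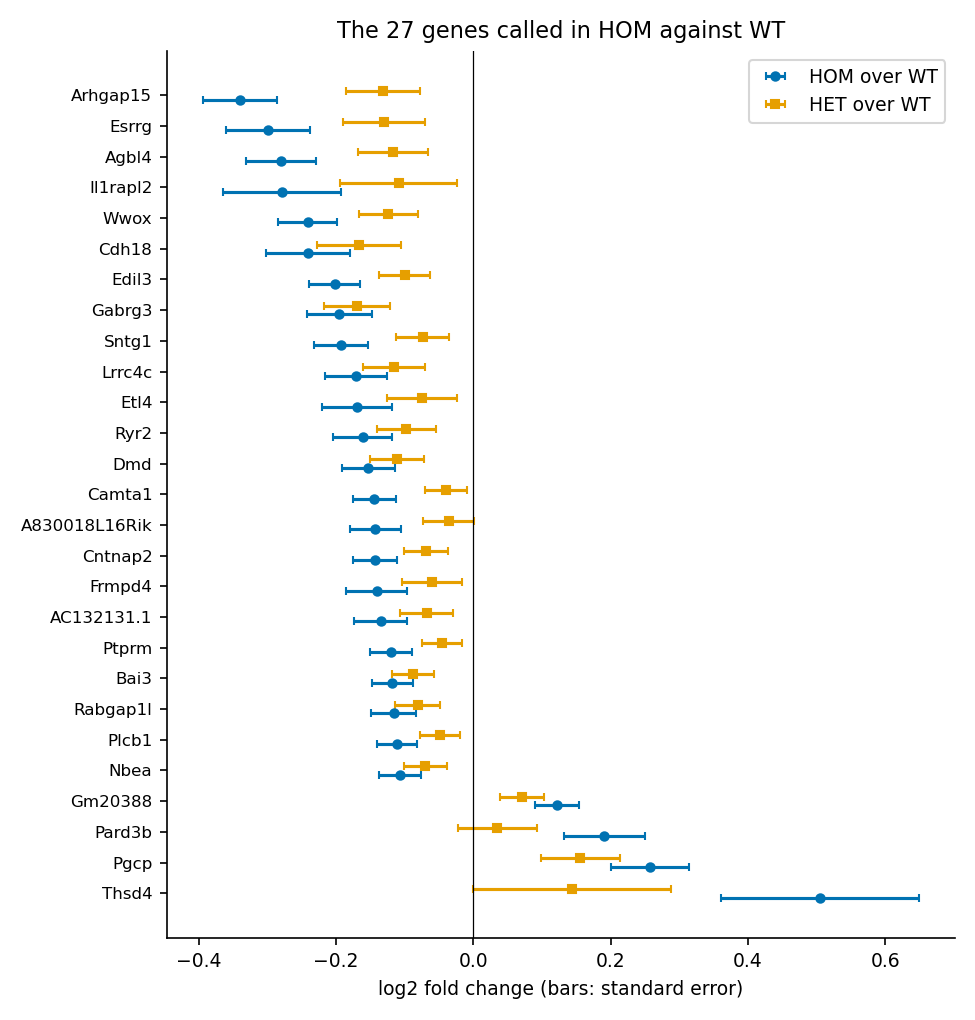
Log2 fold changes over WT (horizontal axis, bars are standard errors) of the 27 very long genes that passed the test in HOM, for HOM (blue circles) and HET (orange squares). The HOM values run from -0.34 for Arhgap15 to 0.51 for Thsd4; both comparisons share the 8 WT libraries, and no HET value passed the test.

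With 1 mutant allele no very long gene passed. In HET against WT, edgeR's quasi-likelihood test called 0 of 155 members and 0% of all 16110 genes. At an unadjusted p under 0.05 there were 30 members (19.4%, against 9.6% of all genes), 28 of them lower (18.1% against 4.66%). DESeq2 and limma voom called 0 members too, and 12 and 14 genes in all. The members' median log2 fold change was -0.04, against 0.001 for all genes, and 106 members were below 0 (68.4%, against 49.5%). The 6 members with the smallest p, chosen after their values were seen, were all lower: Gabrg3 (-0.17), Dcc, a netrin receptor of axon guidance (-0.24), Csmd3, a synaptic protein with complement-like domains (-0.20), Bai3 (-0.09), Wwox (-0.12) and Mar-01, a ubiquitin ligase (-0.14), with adjusted p from 0.361 to 0.406. For Gabrg3, 9 of 10 HET libraries were under the lowest WT value, at 29.9 to 36.7 CPM against 35.9 to 38.5.

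In HOM against HET no member passed either, and 6 genes of all did (0.0372%; 0.0248% lower and 0.0124% higher). At an unadjusted p under 0.05 there were 21 members (13.5%, against 8.54% of all genes), 18 of them lower (11.6% against 3.75%), and the median was -0.02, against 0.002 for all genes. The fold change was below 0 for 100 members (64.5%, against 48.7%). The smallest p belonged to Arhgap15, at -0.21 (adjusted p = 0.126); DESeq2 and limma voom each called this gene. Agbl4 was at -0.16 (adjusted p = 0.281), Sntg1 at -0.12 (adjusted p = 0.318) and Camta1 at -0.10 (adjusted p = 0.235). Each pair of the 3 comparisons shares a group of libraries, so their values are set side by side without a test of likeness. For Arhgap15, HET stood -0.13 and HOM -0.34 from WT, for Agbl4 -0.12 and -0.28, and for Camta1 -0.04 and -0.14. For Gabrg3 the 2 values were -0.17 and -0.20, for Lrp1b -0.14 and -0.15, and for Csmd3 -0.20 and -0.12. Whether the HET values differ from a midpoint of the other groups was not tested.

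Sequence features of the members were described because TDP-43 binds UG repeats. Introns were not analysed here, so the search covered annotated transcripts of GENCODE vM21, for runs of TG repeated at least 6 times in a row (DNA letters, sense strand). Such a run occurred in 27 of 150 members (18%), in 8.78% of 15566 other genes and in 15.4% of 4049 other genes whose longest transcript fell in the middle 50% of the members' lengths. Runs of AC of the same length, which would be TG on the other strand, occurred in 26.7% of the members, 7.51% of other genes and 12.7% of those of like length. The longest run of the 27 was in Ptprd, in a noncoding transcript. Cadm2, Pard3b and Gm20388 hold one in a 3′ UTR. The 30-base windows below show the start or whole of these runs, with TG repeats in capitals.
Ptprd (27 repeats): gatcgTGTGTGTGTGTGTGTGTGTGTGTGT
Cadm2 (24 repeats): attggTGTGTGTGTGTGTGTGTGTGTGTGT
Pard3b (23 repeats): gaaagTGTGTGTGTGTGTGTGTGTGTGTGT
Gm20388 (7 repeats): caaaatcgTGTGTGTGTGTGTGaaccaggc
Of the 27 members with a run, none fell and 2 rose in HOM (Pard3b and Gm20388), with a median of -0.04. Of the 123 searched members without a run, 22 fell and 2 rose, with a median of -0.06. Over all genes tested, with or without a run, 3.71% were lower and 3.9% higher. Calls of other genes were not counted by run, and the difference between members with and without one was not tested. The 5 members outside the reference, AC132131.1 among them, were not searched. A run is a description of these letters and not a measured binding site.

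The 250 bases before the start site were matched in RefSeq (GRCm38.p6) for 117 members. They held a median of 13 CG dinucleotides, against 15 over 12196 genes tested. The observed to expected CG ratio was at least 0.6 in 55.6% of the members and in 62.4% of all. The letters TATAAA, on either strand, occurred in 7.69% and 6.65%, and GGGCGG, on either strand, in 49.6% and 56.8%. 4 of these windows are shown, from genes that moved in HOM and whose window lies outside their annotated span: the 3 with the smallest p among those that fell, and Pard3b, which rose. CG dinucleotides are in capitals.
Arhgap15, chr2:43748574-43748823, plus strand: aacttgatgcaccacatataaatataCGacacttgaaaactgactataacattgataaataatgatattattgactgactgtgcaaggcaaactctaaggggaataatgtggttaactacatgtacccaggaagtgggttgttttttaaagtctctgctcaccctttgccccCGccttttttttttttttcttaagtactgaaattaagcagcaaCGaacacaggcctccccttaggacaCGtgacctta
Ptprm, chr17:67354460-67354709, minus strand: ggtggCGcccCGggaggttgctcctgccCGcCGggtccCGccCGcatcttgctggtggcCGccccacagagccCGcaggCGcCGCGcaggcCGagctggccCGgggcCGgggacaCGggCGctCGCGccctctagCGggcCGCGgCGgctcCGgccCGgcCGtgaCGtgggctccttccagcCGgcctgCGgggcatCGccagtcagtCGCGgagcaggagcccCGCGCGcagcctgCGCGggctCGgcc
Gabrg3, chr7:57387216-57387465, minus strand: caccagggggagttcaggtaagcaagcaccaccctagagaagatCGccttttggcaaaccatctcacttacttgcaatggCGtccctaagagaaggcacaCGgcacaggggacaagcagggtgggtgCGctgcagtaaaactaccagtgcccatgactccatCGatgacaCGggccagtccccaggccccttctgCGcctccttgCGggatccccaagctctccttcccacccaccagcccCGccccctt
Pard3b, chr1:61638574-61638823, plus strand: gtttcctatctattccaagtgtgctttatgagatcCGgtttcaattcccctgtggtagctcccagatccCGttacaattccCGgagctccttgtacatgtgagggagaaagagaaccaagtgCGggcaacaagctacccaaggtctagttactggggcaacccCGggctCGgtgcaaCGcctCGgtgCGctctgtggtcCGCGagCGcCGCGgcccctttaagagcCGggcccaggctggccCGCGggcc
Arhgap15 has 4 CG in its window and a match to TATAAA, Ptprm 37, Gabrg3 9 and Pard3b 17. The 3 genes that fell thus differ widely in CG content. RefSeq's outermost start site may not be the one used in cortex.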

How the data were processed

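The authors deposited raw read counts per gene for each of the 28 libraries. Trim Galore 0.4.3, HISAT2 2.0.5 and GRCm38 are named in the submitters' processing notes. How reads were assigned to genes, with or without strand and on which annotation, is not given in the sources used here, so overlapping genes on opposite strands cannot be told apart. The 25965 rows were summed to 25900 gene identifiers. All 378 pairs of libraries differed by more than sampling noise (chi-square per degree of freedom 6.762 or more).

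Genes were kept by filterByExpr (16110, all 155 members among them), scaled by TMM and tested with edgeR 4.0.16 in R 4.3.3 (quasi-likelihood, two-sided, 1 fit of 28 libraries with a mean per genotype), with Benjamini-Hochberg adjustment over all genes and a threshold of 0.05. The biological coefficient of variation was 8.46%. On counts simulated for HOM against WT (16070 genes), 48% of 50 genes changed 1.15-fold, 80% changed 1.3-fold and 98% changed 1.6-fold were recovered, with 6 false calls. Fewer genes were changed there than the 1226 called in the data, and no change under 1.15-fold was simulated. Recovery of the smaller changes of many members is therefore not known. Alternatives used DESeq2 1.42.0, limma 3.58.1 and sva 3.50.0, other filters, spans and covariates, a replicate block, and the omission of each library.

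The members, role lists and marker lists were chosen with earlier results of these data known. Named genes are the 5 longest, the 5 most abundant, up to 20 called in each direction by smallest p and the 2 most abundant of each role; Etl4, Il1rapl2, Frmpd4, Dcc, Csmd3, Mar-01 and the genes at the limits of the rule were added after their values were seen.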

Additional observations from a re-analysis of the deposited data

Results flagged for a closer look

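In 105 groups of libraries, taken over the named genes and the 3 genotypes, single libraries were checked for a gap to all others of their group. 6 stood apart by Dixon's criterion, and chance gives about 5.25 (1 in 20). Thsd4 did so in all 3 genotypes, always upward: WT 2 at 7.51 CPM (others 5.78 to 6.38), HET 10 at 10.2 (others 5.6 to 7.26) and HOM 3 at 17.4 (others 6.0 to 9.97). HET 2 was high for Kalrn, at 741.6 CPM (others 594 to 671), and for Lrrc4c, at 126 CPM (others 95.8 to 112). WT 6 was high for Rora, at 105 CPM (others 85.2 to 91.8). HET 2 had the largest total, 74.91 M counts (M for 1000000). The part of depth in these values was not tested.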

How the results depend on the processing

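How depth limits the calls was not tested by level; 35 members had a mean under 10 CPM. The members' median in HOM against WT stayed below 0 in every alternative, from -0.07 (span of 750 kb or more) to -0.04 (marker scores). The number of members that passed, 27, was 12 with 2 surrogate variables (7.74% of members, beside 6.65% of all genes), 2 with meningeal and vascular marker scores (1.29%, beside 0.919%), 13 without WT 6 and HOM 3, and 15 of 73 at a span of 750 kb or more, where fewer genes were tested; otherwise the cause was not tested. With 1 library left out it ranged from 14 (without WT 6) to 32 (without WT 4). DESeq2 called 33 (29 lower) and limma voom 30, and 1563 and 1392 genes in all instead of 1226. HET against WT stayed at 0 members; HOM against HET gave 1 with DESeq2 and 1 with limma voom. Whether replicate numbers pair the libraries is not labelled. Of 26 same-numbered pairs, 5 correlated above 0.1 (median 0.01, other pairs -0.007). Other pairs above 0.1 were not counted, and such correlations cannot exclude a pairing. With the number as a block, 19 members passed (17 lower) and 737 genes in all. Of the 27 members that passed, 13 kept the call without each WT or HOM library, and Arhgap15 kept it in all 30 alternatives (adjusted p 7.22e-07 to 0.00497). Of 960 values of named genes, 9 changed sign, all of genes that had not passed: Syt1 to 0.007 and Ptprn2 to 0.07 with the marker scores, Ptprn2 to 0.008 with the pan-neuronal score and 0.003 without HOM 6, Kalrn to 0.026 and Rora to 0.042 with surrogate variables, and Rora to 0.028 without WT 6 and HOM 3, 0.014 without WT 6 and 0 without HOM 8. With 1 library left out, Ptprn2 ranged from -0.035 to 0.003 and Rora from -0.036 to 0.014. Alternatives without WT 6 and HOM 3, without HOM 1 and HOM 2 and with the pan-neuronal score were chosen after seeing the data. Repeats over whole spans were not run.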
